A study of Mus musculus with 4 samples.

Results

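DNA replication and mitosis genes were followed across the 4 RNA-seq libraries of MC38, a mouse colon carcinoma cell line. The set held 42 genes of the 27179 in the count table, found by matching the NCBI gene ID of each row to its mouse symbol, and it was divided into 23 replication genes and 19 mitotic genes. All 42 had counts in every library and passed the filter on low counts that left 13580 genes for testing. The 4 conditions were untreated control cells in normoxia (20% oxygen), untreated control cells in hypoxia (1.5% oxygen), and cells given the cytokine IFN-γ in normoxia or in hypoxia, with 1 library each. The study's methods give 5 ng/mL for 24 h as the IFN-γ treatment used in most experiments, and the time in hypoxia is not given in the sources used here. All libraries were of wild-type cells of the same line, so no condition had a replicate, and whether the libraries came from separately grown cultures is not stated.

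A cell copies its DNA once in each division cycle. In G1, the origin recognition complex with Cdc6 and Cdt1 loads the MCM2 to MCM7 ring onto DNA, and in S phase Cdc45 and the GINS complex turn that ring into an active helicase, followed by the DNA polymerases and their sliding clamp Pcna. E2F transcription factors drive many of these genes at the G1 to S transition. The mitotic genes peak later, in G2 and M, and include the cyclin-dependent kinase Cdk1 with its cyclins, the Polo and Aurora kinases, spindle motors, kinetochore proteins and the spindle checkpoint. Repression of many of them outside G2 and M acts through a promoter element called CHR (cell cycle genes homology region), often close to CCAAT boxes. In a bulk library, fewer cells in S phase or mitosis and less RNA per cell cannot be told apart.

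The libraries held 34302971 to 34537939 counts, and the members took 1.12% to 1.18% of each. Both stimuli left their usual marks. Irf1, a transcription factor induced by interferons, was counted 3770 and 4422 times without IFN-γ and 20118 and 23759 times with it. Car9, a carbonic anhydrase induced by low oxygen, had 422 and 324 counts in the normoxic libraries and 1733 and 1536 in the hypoxic ones. Of the 7 colon epithelial markers checked against the cell line label, Epcam, Krt18, Cdh1 and Cdx2 had at most 3 counts in every library, and the 7 summed to 2.47 to 3.24 CPM (counts scaled to a common library size). The immune markers summed to 0.203 to 0.670 CPM, the endothelial markers to 0.898 to 1.57 CPM and the fibroblast markers to 36.4 to 44.2 CPM, most of it from the growth factor receptor gene Pdgfra.

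Levels of the members were compared with each other as CPM per kb of annotated exon, averaged over the 4 libraries. The replication genes spanned a wider range than the mitotic ones. Pcna stood highest at 303 CPM per kb, followed by Mcm5 at 186, the ribonucleotide reductase subunit Rrm2 at 176 and Mcm3 at 165. The cyclin E genes Ccne1 and Ccne2, which start S phase with Cdk2, were among the lowest at 6.56 and 10.6 CPM per kb. Among the mitotic genes, Cdc20, the activator of the anaphase-promoting complex, and Ube2c, the ubiquitin-conjugating enzyme of that complex, were highest at 147 and 114 CPM per kb. The centromere protein Cenpf was lowest at 5.54 CPM per kb. Each member varied little between libraries, with a ratio of the highest to the lowest library from 1.04 for Aurka to 1.45 for Bub1. The ranges over the libraries of neighbours in this order overlapped for several pairs, such as Mcm5 (176 to 195) and Rrm2 (154 to 189), and those orders are not separated. Parts of the transcripts of Ccnb1, Mcm7, Cdc20 and Pcna also occur in other annotated genes (27.7%, 26.8%, 25.5% and 23.3% of their 31-base words), so their levels are uncertain.

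**Figure D1:**
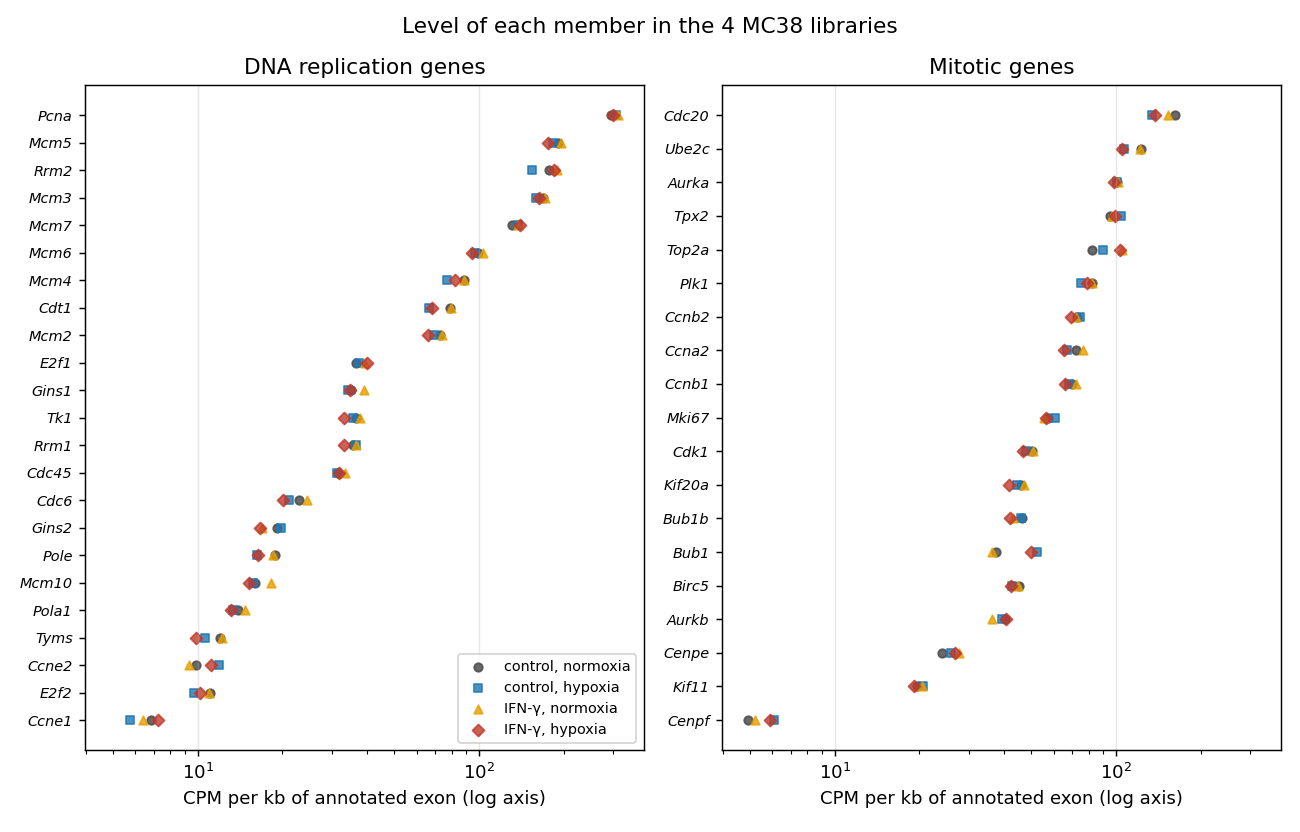
Level of each replication gene (left) and mitotic gene (right) in the 4 libraries, in CPM per kb of annotated exon on a log axis, with 1 point per library and genes ordered by their mean. The genes spread from 5.54 to 303 CPM per kb, while the 4 points of any gene lie within a ratio of 1.45.

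The promoters of both groups were searched for the letters of an E2F site (TTTCCCGC or TTTGGCGC), the CHR (TTTGAA) and the CCAAT box (CCAAT), on both strands, in RefSeq windows of 250 bases before to 50 bases after a transcription start (build GRCm38.p6). No motif contains another. Windows were matched for 18 replication genes (20 windows) and 15 mitotic genes (15 windows). Mcm4, Gins1, Gins2, Pole, Ccne2, Ccna2, Aurkb, Kif20a and Tpx2 had no window in the table. An E2F site was found in 8 of the 20 replication windows and in 0 of the 15 mitotic windows, against 1.56% of all 32851 windows. The CHR was found in 3 replication windows and in 11 mitotic windows, against 17.9% of all windows. CCAAT boxes were common to both, in 14 of 20 and 14 of 15, against 37.4% of all windows. Among other genes of the same processes, the E2F site was in 16.7% of the replication and 8.33% of the mitotic windows, and the CHR in 12.5% and 68.8%. CCAAT boxes were in 39.6% of the other replication windows, near the share of all windows, and in 68.8% of the other mitotic windows. A match of letters describes the sequence and is not evidence of binding.

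**Figure D2:**
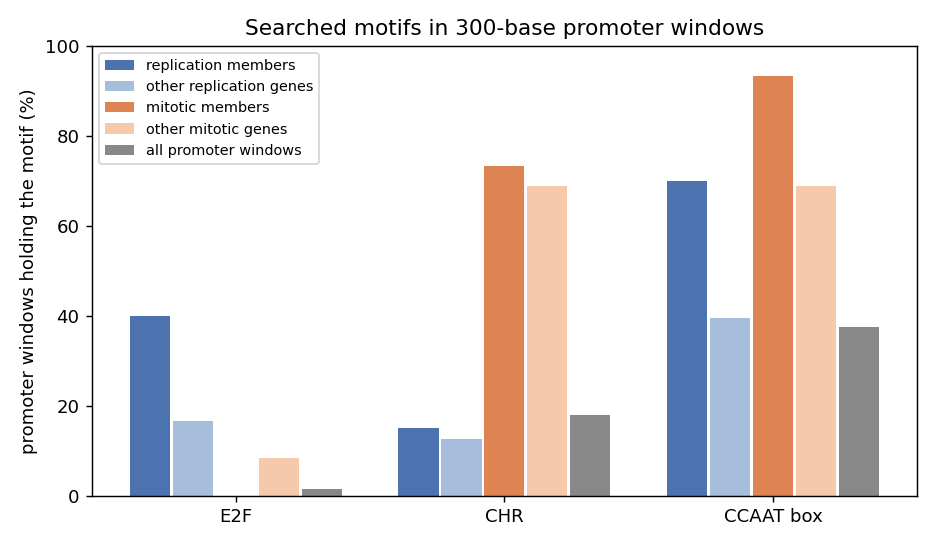
Share of promoter windows that hold each motif, in percent, for replication members (20 windows), other replication genes (48), mitotic members (15), other mitotic genes (48) and all 32851 windows. The E2F bar of the mitotic members is at 0, and their CHR bar stands at 73.3%, against 3 of 20 windows for the replication members.

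Upstream bases are shown for Mcm5, Top2a and Mki67, which with Pcna are the most counted members of each group with a motif. Cdc6, Cdc20 and Bub1 were added after their values were seen, as members with a motif before the start that changed in hypoxia. Tyms, Cdt1 and Pole fell more than Cdc6, but Tyms and Cdt1 had no searched motif before the start and Pole had no window. The match of Pcna, a CCAAT box, lies in an annotated exon and is not shown. Only bases outside annotated exons are given, 5′ to 3′ in the direction of transcription. The E2F, CHR and CCAAT letters, on either strand, are in capitals. Mcm5 lies at chr8:75109259-75109467 (plus strand) and ends 41 bases before the start. Top2a lies at chr11:99024200-99024439 and Mki67 at chr7:135716451-135716629 (both minus strand). Cdc6 lies at chr11:98907982-98908150 (plus strand), between an upstream exon of another transcript and the start. Cdc20 lies at chr4:118437353-118437593 and Bub1 at chr2:127831866-127832109 (both minus strand).
Mcm5: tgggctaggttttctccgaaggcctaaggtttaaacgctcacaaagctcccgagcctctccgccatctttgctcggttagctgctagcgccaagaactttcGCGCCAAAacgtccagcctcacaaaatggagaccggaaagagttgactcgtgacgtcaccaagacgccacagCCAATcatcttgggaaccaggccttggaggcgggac
Cdc6: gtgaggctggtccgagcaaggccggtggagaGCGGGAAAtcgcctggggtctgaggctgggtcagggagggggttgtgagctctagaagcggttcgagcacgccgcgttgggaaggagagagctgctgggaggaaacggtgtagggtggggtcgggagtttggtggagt
Top2a: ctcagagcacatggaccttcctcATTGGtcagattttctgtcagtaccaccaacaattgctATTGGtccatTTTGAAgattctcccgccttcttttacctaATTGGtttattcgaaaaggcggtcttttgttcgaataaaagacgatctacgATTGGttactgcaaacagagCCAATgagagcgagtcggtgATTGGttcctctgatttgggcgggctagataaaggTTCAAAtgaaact
Mki67: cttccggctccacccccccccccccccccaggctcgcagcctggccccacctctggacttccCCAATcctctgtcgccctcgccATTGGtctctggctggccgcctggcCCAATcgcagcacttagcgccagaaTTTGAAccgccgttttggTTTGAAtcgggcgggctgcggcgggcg
Cdc20: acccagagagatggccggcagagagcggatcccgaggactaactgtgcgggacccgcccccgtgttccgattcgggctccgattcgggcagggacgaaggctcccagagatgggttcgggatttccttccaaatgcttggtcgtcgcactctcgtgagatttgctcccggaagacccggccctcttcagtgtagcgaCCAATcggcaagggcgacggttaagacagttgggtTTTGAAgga
Bub1: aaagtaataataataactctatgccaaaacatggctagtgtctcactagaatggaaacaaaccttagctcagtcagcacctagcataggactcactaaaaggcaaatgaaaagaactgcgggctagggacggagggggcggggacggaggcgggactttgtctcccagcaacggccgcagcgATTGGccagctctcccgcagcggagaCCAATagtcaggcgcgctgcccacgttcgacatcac
Genes were picked as holding a searched motif, so the presence of a match in each is given by that choice. The 2 replication sequences each hold 1 E2F match. Top2a, Mki67 and Cdc20 hold CHR and CCAAT letters. Bub1 holds 2 CCAAT boxes and no CHR.

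For the changes, edgeR's quasi-likelihood test estimated the hypoxia and IFN-γ effects together from all 4 libraries, with p-values adjusted over all 13580 genes (Benjamini-Hochberg) and called at 0.05. With 1 library per condition, the spread in this test is the departure of genes from additive effects (1 residual degree of freedom per gene, pooled coefficient of variation 4.71%). Variation from culture to culture and real interaction of the stimuli both enter this spread, and the p-values are no substitute for replicates. Changes within a pair of libraries are log2 ratios of normalised CPM with 95% Clopper-Pearson intervals that cover counting error only.

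Hypoxia lowered a part of the replication genes by small amounts. Cdc6, Cdt1, Mcm4, Pole and Tyms fell, Ccne2 rose, and the remaining 17 of 23 were not called. Over all genes tested, 6.83% were lowered and 8.21% raised by hypoxia. Among the 7914 genes with at least the mean count of the least counted member, the shares were 10.5% lowered and 9.87% raised. Most members were counted well above that floor, so these genes are not matched to the members in depth. For the replication genes the lowered share was 21.7% (5 of 23) and the raised share 4.35% (1 of 23). The median log2 change in hypoxia was -0.10 over the replication genes and 0.005 over all genes tested. Of the replication genes, 16 of 23 (69.6%) were lower in hypoxia in both pairs of libraries and 3 (13.0%) were higher in both. Over all genes tested, 31.9% were lower and 33.9% higher in both. All genes tested include many with lower counts, and no such share was taken at the depth of the members.

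Both licensing factors, Cdt1 and Cdc6, fell. Cdt1 had 8568 counts in the control normoxic, 7201 in the control hypoxic, 8574 in the IFN-γ normoxic and 7349 in the IFN-γ hypoxic library. Both hypoxic libraries lay below both normoxic ones, and the normoxic counts were nearly equal. Its log2 change was -0.23 ± 0.06 (SE, edgeR adjusted p = 0.000417). Cdc6, its partner in MCM loading, had 4151, 3820, 4375 and 3610 counts in the same order. The hypoxic libraries were again the lower ones, with the larger gap in the presence of IFN-γ. The log2 change of Cdc6 was -0.20 ± 0.06 (SE, edgeR adjusted p = 0.0129).

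Of the 6 subunits of the MCM ring, 1 was called. Mcm4 had 11000, 9583, 10848 and 10112 counts and a log2 change of -0.15 ± 0.05 (SE, edgeR adjusted p = 0.0379). Both hypoxic libraries lay below both normoxic ones. Mcm2 (17495, 16582, 17626 and 15690 counts), Mcm3 (21891, 20658, 22047 and 20954), Mcm5 (26355, 25290, 26716 and 24046) and Mcm6 (16017, 15596, 16449 and 15115) were lower in hypoxia in both pairs, with log2 changes of -0.12, -0.08, -0.10 and -0.08 that were not called. Mcm7, with 20063, 20906, 20809 and 21208 counts, was the exception in direction at 0.05. Its counts are uncertain for the shared stretches given above. Other annotated genes also overlap 3.89% of its exon bases on the same strand and 8.7% on the opposite strand. Mcm10, which binds the ring when origins fire, had 4275, 4176, 4803 and 4006 counts and a log2 change of -0.15 that was not called (edgeR adjusted p = 0.0826). The median log2 change of the 6 ring subunits was -0.09.

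The remaining replisome genes were divided. Pole, the catalytic subunit of the leading-strand polymerase ε, had 7311, 6254, 7129 and 6280 counts. Both hypoxic libraries lay below both normoxic ones, with a log2 change of -0.20 ± 0.06 (SE, edgeR adjusted p = 0.00433). Pola1, the catalytic subunit of polymerase α, which makes the primers with primase, had 4248, 4077, 4443 and 3955 counts and an uncalled change of -0.11. Pcna had 24387, 25437, 25674 and 24556 counts and a log2 change of 0.00, with a 95% interval from -0.09 to 0.10. Cdc45 (3827, 3809, 4018 and 3822 counts) and the GINS subunits Gins1 (1836, 1792, 2025 and 1809) and Gins2 (2712, 2810, 2372 and 2351) had uncalled hypoxia changes of -0.04, -0.10 and 0.02.

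Among the genes of nucleotide supply, Tyms, the thymidylate synthase that makes dTMP, fell in hypoxia. It had 2534, 2228, 2548 and 2056 counts, with nearly equal counts in the normoxic libraries and lower ones in both hypoxic libraries. The log2 change was -0.25 ± 0.07 (SE, edgeR adjusted p = 0.0043), so Tyms fell by 15.6%. The salvage enzyme Tk1 (6546, 6411, 6729 and 5903 counts) and the ribonucleotide reductase subunits Rrm1 (13628, 13875, 13737 and 12546) and Rrm2 (17006, 14767, 17971 and 17431) were not called, at log2 changes of -0.11, -0.05 and -0.12.

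Ccne2 was the replication gene that rose in hypoxia. It had 1191, 1437, 1117 and 1337 counts, higher in both hypoxic libraries, and a log2 change of 0.27 ± 0.08 (SE, edgeR adjusted p = 0.00666). Of its annotated exon bases, 17.4% overlap Ints8 on the opposite strand, which had 2079, 2096, 2023 and 1857 counts. Whether the counting used the strand is not given in the sources used here. Its paralog Ccne1 had 631, 530, 583 and 660 counts. Its hypoxia change took opposite signs, -0.25 on the log2 scale (95% interval -0.42 to -0.08) in the control pair and 0.18 (0.02 to 0.34) in the IFN-γ pair. The activating E2F factors E2f1 (3982, 4093, 4242 and 4312 counts) and E2f2 (1874, 1637, 1835 and 1703) had uncalled changes of 0.03 and -0.15.

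The mitotic genes went both ways in hypoxia. Bub1, Cenpf and no other mitotic member rose, Ccna2, Cdc20 and Ube2c fell, and 14 of 19 were not called. The raised share was 10.5% (2 of 19) and the lowered share 15.8% (3 of 19), beside 9.87% and 10.5% of the 7914 genes above the floor. The median log2 change was -0.03, and 10 of 19 (52.6%) were lower and 4 of 19 (21.1%) higher in both pairs. Over all genes tested, without matching for depth, these shares were 31.9% and 33.9%.

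Bub1, a kinase of the spindle checkpoint that marks kinetochores and centromeres, had the largest change of all members. It had 5653 counts in the control normoxic, 7895 in the control hypoxic, 5406 in the IFN-γ normoxic and 7451 in the IFN-γ hypoxic library. The hypoxic libraries stood well above the normoxic ones with and without IFN-γ. The log2 change was 0.47 ± 0.06 (SE), a rise of 38.9% (edgeR adjusted p = 6.41e-15). Within pairs the change was 0.48 (95% interval 0.43 to 0.53) without and 0.46 (0.41 to 0.52) with IFN-γ. The gene lies on the minus strand at chr2:127800197-127831859, and no other annotated gene overlaps its exons. Its paralog Bub1b, the BUBR1 component of the same checkpoint, had 6865, 6765, 6311 and 6165 counts and a hypoxia change of -0.03. In the pair without IFN-γ, Bub1 exceeded Bub1b in log2 change by 0.50 (95% counting interval 0.43 to 0.57), and in the pair with IFN-γ by 0.50 (0.42 to 0.57).

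Cenpf, a large kinetochore and nuclear matrix protein, had 2627, 3252, 2771 and 3120 counts. Both hypoxic libraries exceeded both normoxic ones, and the log2 change was 0.24 ± 0.06 (SE, edgeR adjusted p = 0.00283). Cenpe, the kinetochore motor, had 7156, 7716, 8194 and 7878 counts and an uncalled change of 0.03.

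The 3 mitotic members that fell were Cdc20, Ube2c and Ccna2. Cdc20 had 10492, 8680, 9777 and 8831 counts, uncertain for the shared stretches given above and lower in both hypoxic libraries, and a log2 change of -0.21 ± 0.05 (SE, edgeR adjusted p = 0.0017). Ube2c had 11067, 9647, 10899 and 9367 counts, again lower in both hypoxic libraries, and the same log2 change of -0.21 ± 0.05 (SE, edgeR adjusted p = 0.00166). Ccna2, cyclin A2, which acts with Cdk2 in S phase and with Cdk1 in G2, had 10201, 9483, 10714 and 9107 counts and a change of -0.17 ± 0.05 (SE, edgeR adjusted p = 0.0157). On the opposite strand, Tnnc2 overlaps 22.8% of the exon bases of Ube2c and Exosc9 12.5% of those of Ccna2. Tnnc2 had 20 to 37 counts and Exosc9 1376 to 1538.

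The remaining mitotic members were not called in hypoxia. Cdk1 (8572, 8161, 8571 and 7909 counts), its cyclins Ccnb1 (10192, 9918, 10417 and 9528) and Ccnb2 (3866, 3929, 3772 and 3633), and the Polo kinase Plk1 (6268, 5716, 6216 and 5936) had log2 changes of -0.09, -0.08, -0.01 and -0.10. The Aurora kinases Aurka (8885, 8842, 8861 and 8497) and Aurkb (4126, 4017, 3667 and 4110), and Birc5 (5318, 5025, 5211 and 4936), the survivin that works in a complex with Aurkb, had -0.03, 0.06 and -0.08. The spindle motors Kif11 (5063, 5350, 5246 and 4896) and Kif20a (6920, 6682, 6988 and 6186) and the spindle assembly factor Tpx2 (15424, 16794, 15543 and 15883) had -0.01, -0.11 and 0.08. Mki67, the Ki-67 protein used as a proliferation marker, had 19996, 21085, 19233 and 19512 counts and a change of 0.05, with a 95% interval from -0.05 to 0.15. Over the 31 members not called in hypoxia, replication and mitotic together, the 95% intervals of the edgeR fit reached from -0.29 to 0.18.

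**Figure D3:**
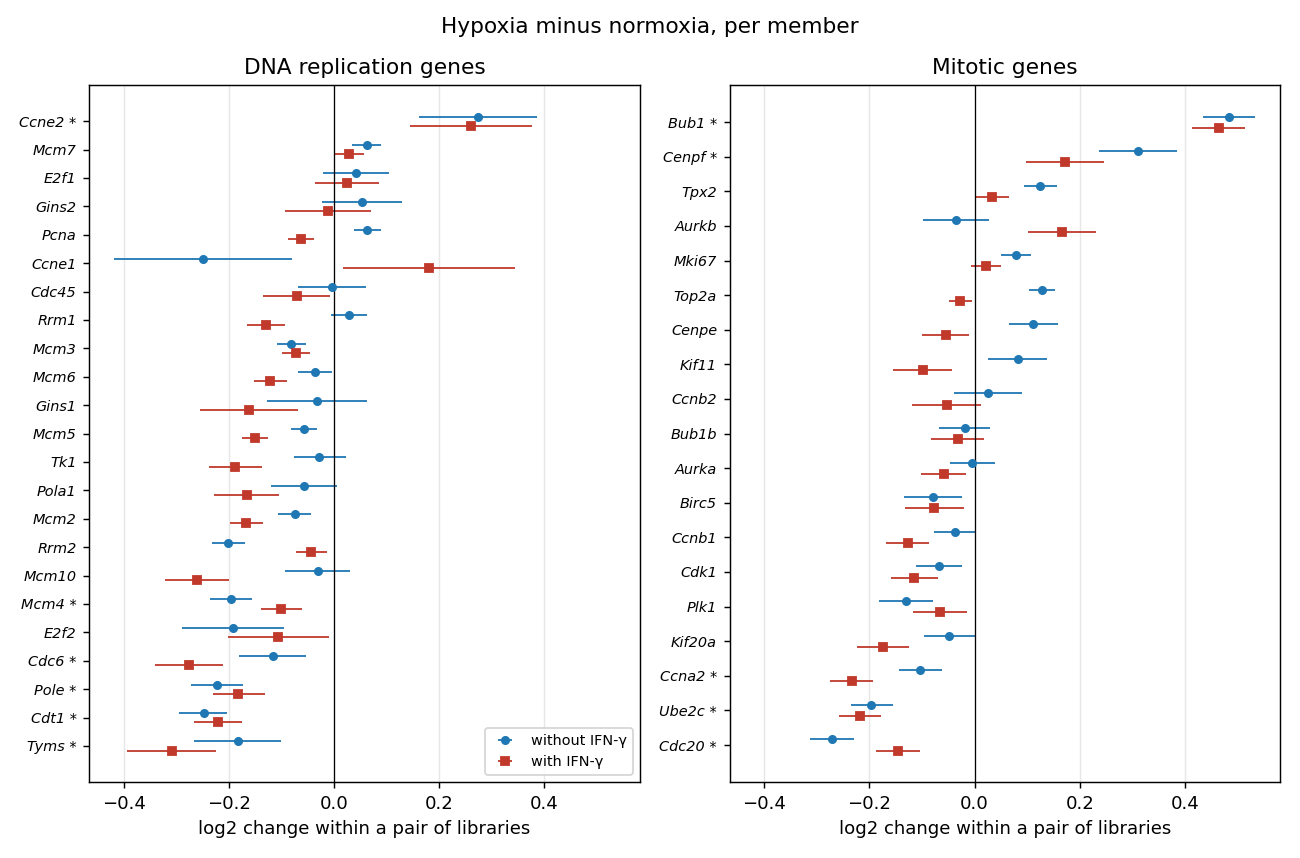
Log2 change from normoxia to hypoxia of each replication gene (left) and mitotic gene (right), in the pair of libraries without IFN-γ (circles) and the pair with IFN-γ (squares), with 95% counting intervals. Asterisks mark the 11 members called by edgeR, and Bub1 stands apart at 0.48 and 0.46.

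Most of these calls did not hold in every alternative fit. In 7 alternative fits Bub1 was called in 7, with adjusted p-values up to 0.0397, while Cdt1 and Ube2c were called in 5, Cdc6, Pole, Tyms, Ccne2, Ccna2, Cdc20 and Cenpf in 4, and Mcm4 in 3. With a preset coefficient of variation of 0.1 (edgeR likelihood ratio test), Bub1 was the only member called raised and 0 members were called lowered, against 2.67% and 0.486% of all genes.

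The sums of both groups were then set side by side. The replication genes summed to 6396 CPM in the control normoxic, 6159 in the control hypoxic, 6609 in the IFN-γ normoxic and 6152 in the IFN-γ hypoxic library. The mitotic genes summed to 5034, 5118, 5256 and 5101 CPM. In hypoxia the replication sum fell by 3.7% without IFN-γ and fell by 6.91% with it, and the mitotic sum changed by 1.66% and -2.95%. Single members weigh in the mitotic sum. In the same library order, Top2a took 741.6, 810.2, 946.7 and 929.3 CPM of it and Bub1 163.2, 228.3, 157.6 and 217.4. Without IFN-γ, the counting intervals of the hypoxia change lay above 0 for 7 mitotic members, these 2 among them, and below 0 for 6. These intervals cover counting error only and are narrow at such counts, excluding 0 for a change of 0.08 in Mki67. The share of all genes with such intervals was not counted. The ratio of the replication to the mitotic sum was 1.27 and 1.26 in the normoxic libraries and 1.20 and 1.21 in the hypoxic ones. The hypoxic ratios lay below the normoxic ones, with 2 libraries on each side, and the difference between the groups was not tested.

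**Figure D4:**
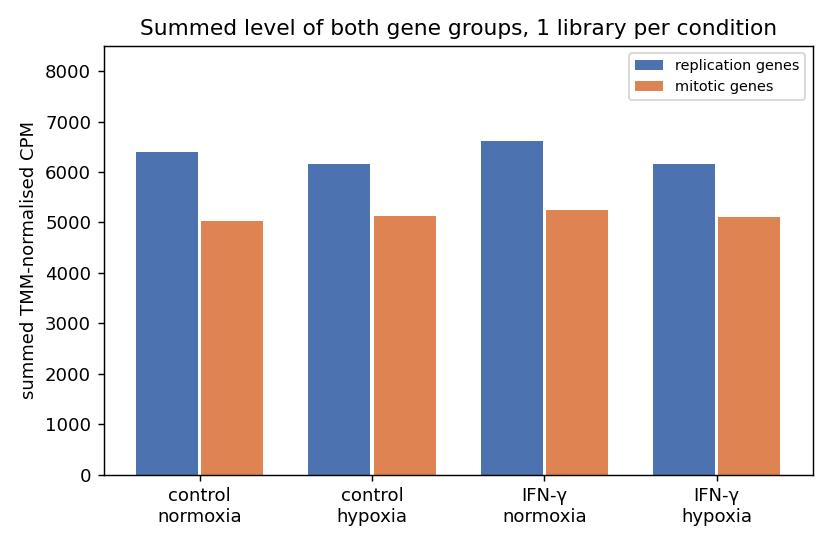
Summed normalised CPM of the 23 replication genes and the 19 mitotic genes in the 4 libraries, 1 library per bar pair and therefore no error bars. The replication bars are lower in hypoxia (6159 and 6152) than in normoxia (6396 and 6609), and the mitotic bars lie between 5034 and 5256.

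IFN-γ was examined because the study asked how it affects mitosis and the cell cycle. In MC38 tumor spheroids, the study found fewer Ki-67-positive cells with IFN-γ by protein staining, whereas the values here are RNA levels. IFN-γ changed few members: Rrm2 and Top2a rose, Gins2 fell and 39 of 42 were not called. Over all genes tested, 4.76% were raised and 1.10% lowered by IFN-γ. Among the 7914 genes with at least the mean count of the least counted member, the shares were 5.12% and 1.24%. The members' own shares were 4.76% raised and 2.38% lowered. The median log2 change was 0.03 over the replication genes, -0.02 over the mitotic genes and -0.01 over all genes.

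Top2a, the topoisomerase IIα that untangles replicated chromosomes, had 25685 counts in the control normoxic, 28014 in the control hypoxic, 32470 in the IFN-γ normoxic and 31843 in the IFN-γ hypoxic library. Both IFN-γ libraries lay above both control libraries. The log2 change was 0.28 ± 0.05 (SE), a rise of 21.0% (edgeR adjusted p = 2.98e-07), and it was called in 5 of 7 alternative fits. Within pairs it was 0.35 (95% interval 0.33 to 0.38) in normoxia and 0.20 (0.17 to 0.22) in hypoxia. Its hypoxia change was 0.05 and was not called. The gene lies on the minus strand at chr11:98992947-99024199.

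Rrm2, the regulated subunit of ribonucleotide reductase, had 17006, 14767, 17971 and 17431 counts. The IFN-γ library was the higher one within each oxygen level, and the control hypoxic library was lowest of all. Its log2 change with IFN-γ was 0.17 ± 0.05 (SE, edgeR adjusted p = 0.0124), called in 3 of 7 alternative fits. Its partner subunit Rrm1 had an uncalled IFN-γ change of -0.05. In the hypoxic pair, Rrm2 exceeded Rrm1 in log2 change by 0.38 (95% counting interval 0.34 to 0.43), and in the normoxic pair by 0.07 (0.02 to 0.11).

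Gins2, a subunit of the GINS complex, was counted 2712 and 2810 times without IFN-γ and 2372 and 2351 times with it. The IFN-γ libraries were lower at both oxygen levels. Its log2 change was -0.21 ± 0.07 (SE, edgeR adjusted p = 0.0292), called in 2 of 7 alternative fits. The partner Gins1, with 1836, 1792, 2025 and 1809 counts, was not called. The gene lies on the minus strand at chr8:120581266-120589075, and 67.3% of its exon bases overlap Gse1 on the opposite strand. Gse1 had 931, 925, 822 and 1049 counts, and its IFN-γ log2 change was 0.02.

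Mki67 had a log2 change of -0.07 ± 0.05 (SE) with IFN-γ that was not called (edgeR adjusted p = 0.612), with a 95% interval from -0.17 to 0.03. Cdk1, Ccnb1 and Plk1 had IFN-γ changes of -0.01, 0.00 and 0.04. The largest uncalled mitotic changes were 0.13 for Cenpe and -0.11 for Bub1b, whose counts were lower with IFN-γ in both pairs. Over the 39 members not called, the fitted IFN-γ changes ran from -0.11 to 0.13 and their 95% intervals reached from -0.24 to 0.31.

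**Figure D5:**
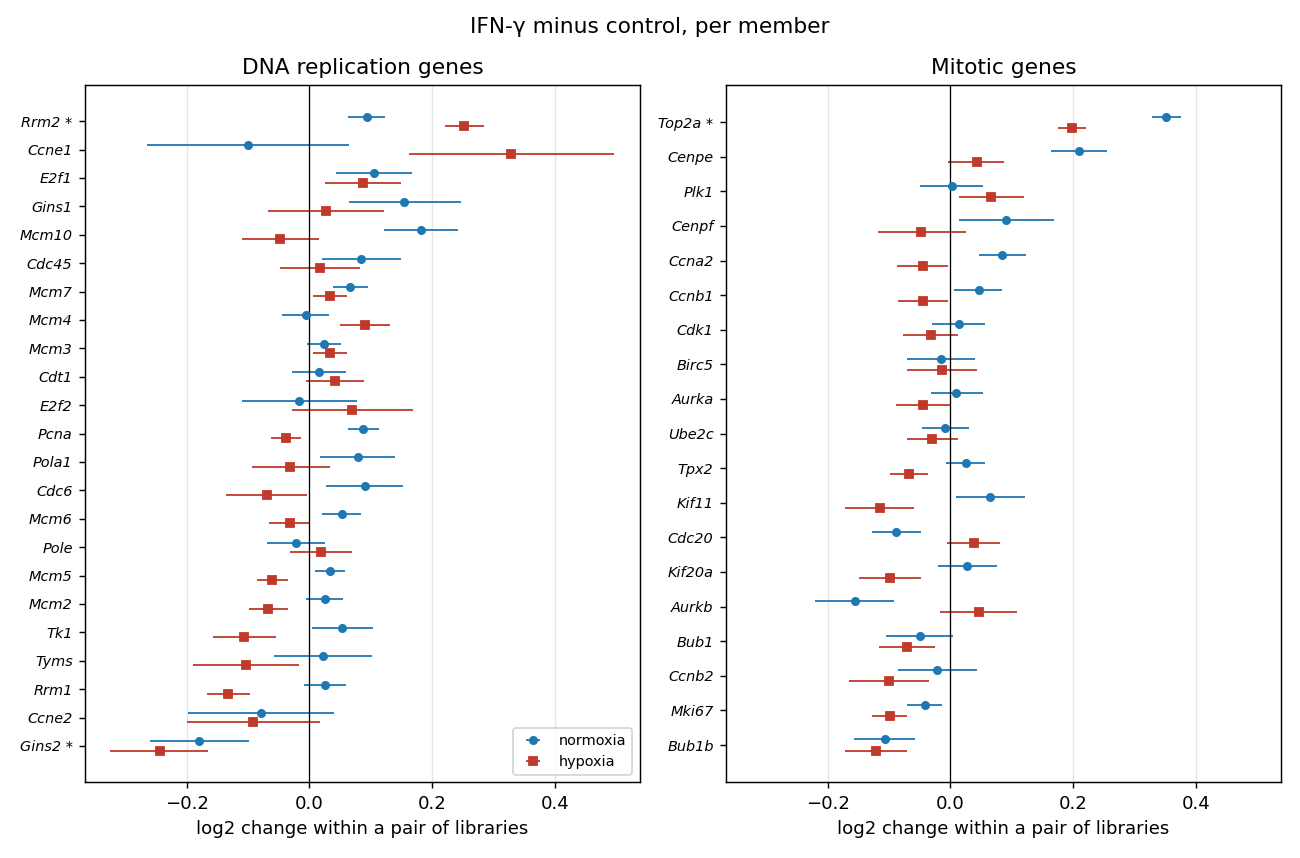
Log2 change from control to IFN-γ of each replication gene (left) and mitotic gene (right), in the normoxic pair (circles) and the hypoxic pair (squares) of libraries, with 95% counting intervals. Asterisks mark Rrm2, Top2a and Gins2, and most other members lie within 0.2 of 0.

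Other genes of the same processes were read from wider lists. Of 44 other replication genes, hypoxia lowered 9 (20.5%) and raised 0, beside 6.83% and 8.21% of all genes tested. Among the 7914 genes with at least the mean count of the least counted member, the shares were 10.5% and 9.87%. Gins3 (log2 change -0.26), Orc2 of the origin recognition complex (-0.25) and Pola2, the partner subunit of Pola1 (-0.24), fell most. Of 50 other mitotic genes, Bora, an activator of Aurka (-0.34), and the spindle protein Ckap2 (-0.18) fell and Anln, the actin-binding anillin of the cleavage furrow (0.19), rose. These shares, 4.0% lowered and 2.0% raised, were below those of all genes. Of 17 cell cycle transcription regulators, 11.8% were called raised, the pocket proteins Rb1 (log2 change 0.40) and Rbl1 (0.16), which repress E2F targets. A further 29.4% were called lowered: E2f8 (-0.27), E2f3 (-0.23), Foxm1 (-0.19), Mybl2 (-0.17) and Tfdp1 (-0.16). Without IFN-γ, E2f8 and Foxm1 changed by -0.47 and -0.35. With IFN-γ they changed by -0.06 and -0.04, with counting intervals that included 0. E2f3, Mybl2 and Tfdp1 were lower in hypoxia in both pairs. Alternative fits are given for the members only, not for these wider lists. The median hypoxia change was -0.07 over the other replication genes and -0.01 over the other mitotic genes. IFN-γ changed 0 genes of these 3 lists at an adjusted p under 0.05 by edgeR.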

How the data were processed

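RNA of 4 MC38 libraries was poly-A selected, made strand-specific and sequenced as paired 100-base reads on a DNBSEQ instrument, aligned with HISAT2 by the authors' provider, and counted with featureCounts on mm10 according to the submitters' processing notes. Versions, annotation, strand setting and the treatment of reads matching several genes are not given in the sources used here. The authors deposited whole-number counts per gene in 1 table, without normalization. Symbols were taken from RefSeq and matched 25275 of 27179 gene IDs. Counts were tested with edgeR 4.0.16 in R 4.3.3 (TMM, filterByExpr at a minimum of 10 counts, additive terms for oxygen and IFN-γ, quasi-likelihood test, Benjamini-Hochberg adjustment at 0.05). Pair changes had 0.5 counts added. Alternatives were DESeq2 1.42.0, DESeq2 size factors or total counts in edgeR, no filter, at least 10 counts in every library, no term for the other stimulus, a preset coefficient of variation of 0.1, a minimum log2 change of 0.3, single pairs and 5 added counts. The edgeR step was run on simulated counts with known IFN-γ changes, drawn with the spread fitted here and no hypoxia effect. Such a run cannot show how well departure from additive effects stands in for variation between cultures. All 42 members were named, as were the 3 with the largest change per wider list and direction, and regulators beyond 3 because their number was small. The members and the lists were chosen with earlier results of these data known. The libraries totalled 34302971 to 34537939 counts. The standard errors of the fit, 0.05 to 0.10 (log2) for the members, were derived from the log2 change and the test statistic. They hold counting error and a departure from additive effects that is pooled over genes, so a gene's own departure hardly widens them. E2f8 and Gins2, with similar mean counts, both had a hypoxia standard error of 0.0668. Their IFN-γ changes in hypoxia minus normoxia differed by 0.404 and -0.065. Exon bases, overlaps and shared words came from GENCODE M21, and promoters from RefSeq, both on GRCm38, the assembly of mm10. Counting intervals treat reads as independent.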

Additional observations from a re-analysis of the deposited data

Results flagged for a closer look

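For 10 members the counting intervals of the change lay on opposite sides of 0 in the pairs of libraries compared. In each case the difference was not tested, since 1 library per condition leaves no spread for it. The share of all genes with such intervals was not counted. By sign alone, the IFN-γ changes of the pairs were opposite for 24 of 42 members and 5962 of 13580 genes tested. The hypoxia changes were opposite in sign for 9 of 42 members and 4649 of 13580 genes. IFN-γ changes were above 0 in normoxia and below 0 in hypoxia for 7 members. Hypoxia minus normoxia, the log2 difference was -0.094 for Mcm5, -0.126 for Pcna, -0.159 for Cdc6, -0.16 for Tk1, -0.13 for Ccna2, -0.091 for Ccnb1 and -0.18 for Kif11. Hypoxia changes were opposite without and with IFN-γ for 5 members, which is the same difference read along the other axis. It was -0.126 for Pcna, 0.429 for Ccne1, -0.155 for Top2a, -0.18 for Kif11 and -0.167 for Cenpe. Ccne1 was the reverse of the others, with fewer counts in hypoxia without IFN-γ (631 to 530 counts) and more counts in hypoxia with it (583 to 660). Of the 42 members, 24 had a counting interval of this difference that excluded 0. That is a larger share than the 38.5% of the 7914 genes with at least the mean count of the least counted member. Most members were counted well above that floor, and deeper counts narrow these intervals. The central 95% of those genes ran from -0.27 to 0.33, and 1 member, Ccne1, lay outside it.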

How the results depend on the processing

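Member counts depended most on how the spread was set. For IFN-γ (2 raised, 1 lowered), total counts in place of TMM left 1 raised, with 0 replication genes raised. DESeq2's Wald test left 1 raised, with 0 replication genes raised and 0 lowered. Filters on low counts (none, or at least 10 in every library) left 0 lowered. Leaving out the other stimulus, the preset coefficient of variation and the minimum log2 change of 0.3 each left 0 raised and 0 lowered in both groups. For hypoxia (3 raised, 8 lowered), DESeq2 left 1 raised, a mitotic gene, with 0 replication genes raised, and 2 lowered, 1 in each group. The same 3 settings each left 1 raised, a mitotic gene, with 0 replication genes raised and 0 lowered in both groups. DESeq2's size factors in edgeR changed no count of members by more than 1.5 times, and no called member reversed its direction in any alternative fit. Adding 5 counts moved a pair change by at most 0.002 log2, and total counts in place of TMM by at most 0.024. Fitted from single pairs, 15 of the 42 changes moved beyond the standard error of the fit for each stimulus. The lack of replicates limits all calls, since no alternative measures the spread between cultures. Leaving out 1 library would leave no residual degrees of freedom, so pairs alone are given instead. No paired analysis was possible because each condition has 1 library and so no replicate numbers to pair, and the other stimulus is already a term of the model.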
